A study of Mus musculus with 15 samples.

Results

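The chemokines and chemokine receptors on the MOE430A array were described in the gastrocnemius of young mice, old mice and old mice on caloric restriction (CR). The members were all probe sets of the deposited table with a single gene symbol that begins with Ccl, Cxcl, Ccr or Cxcr followed directly by a digit. This gave 59 of the 22690 probe sets, which read 45 of the 12394 genes named in this way. Ligands of the CC class were read by 21 probe sets (18 genes) and ligands of the CXC class by 17 probe sets (12 genes). CC receptors were read by 15 probe sets (10 genes) and CXC receptors by 6 probe sets (5 genes). A further 4 probe sets that the annotation assigns to several genes, 1 of them a chemokine or receptor, were not members.

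All mice were male C57BL/6NHsd mice that lived in single cages, and each group held 5 of them, with 1 array per mouse. Young mice were 5 months old and old mice 25 months old, both on the normal diet of 84 kcal per week. Old CR mice were also 25 months old and had been on a lifelong diet that supplied 26% fewer calories and was enriched in protein, vitamins and minerals. Whole muscle was taken, so that resident macrophages, vessels, nerves and connective tissue contribute RNA beside the fibers. Fewer cells of a type and less RNA per cell cannot be told apart in such samples.

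Chemokines are small secreted proteins that guide the movement of leukocytes. They are named by the spacing of their conserved cysteines, which lie side by side in the CC class and are separated by a single residue in the CXC class. Their receptors are seven-transmembrane proteins on the surface of leukocytes and some stromal cells, and signal through inhibitory G proteins. Inflammatory chemokines are induced at sites of injury and recruit monocytes and neutrophils, whereas homeostatic chemokines are made constantly and place lymphocytes and progenitor cells in their tissues. In skeletal muscle they are best known from regeneration, during which monocytes enter the damaged fibers and give rise to macrophages. Many chemokine genes lie side by side in clusters. In the order of genes in RefSeq, Ccl2, Ccl7, Ccl11, Ccl12, Ccl8 and Ccl1 are neighbors, as are Ccl5, Ccl9, Ccl6, Ccl3 and Ccl4.

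The sequences just upstream of Ccl8, Ccl6 and Ccl9 are shown as examples. A probe set of each had a higher mean in old mice than in both other groups, as had other ligands, among them Ccl11 and Cxcl12. Each line gives the 100 bases before the start of the gene, from RefSeq (GRCm38.p6), written 5′ to 3′ on the strand of the gene. Capitals mark matches, on either strand, to a TATA box (TATAAA) or to an NF-kB motif (GGG and TTTCC with any 2 bases between them).
Ccl8, chr11:82115085-82115184, plus strand: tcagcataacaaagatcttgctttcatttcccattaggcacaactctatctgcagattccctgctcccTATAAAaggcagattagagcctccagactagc
Ccl6, chr11:83593088-83593187, minus strand: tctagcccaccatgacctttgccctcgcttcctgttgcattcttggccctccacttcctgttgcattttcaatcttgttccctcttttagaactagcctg
Ccl9, chr11:83578637-83578736, minus strand: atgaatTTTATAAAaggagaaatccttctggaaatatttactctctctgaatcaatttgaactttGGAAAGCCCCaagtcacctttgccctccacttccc

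The TATA box of Ccl8 begins 32 bases before the start of the gene. In Ccl9, overlapping matches on both strands begin 94 and 92 bases before it and the NF-kB match 35 bases before it, and neither set of letters is in the Ccl6 window. The neighbors Ccl6 and Ccl9 share an identical stretch of 13 bases (gccctccacttcc). The longest stretch shared by Ccl8 and Ccl9 has 9 bases (tataaaagg), and that shared by Ccl6 and Ccl8 has 6 bases. Promoter sequences were given for 32 of the 45 genes, in 36 windows of 250 bases before the start. The TATA letters were in 9 of these windows (25%) and in 12.4% of all 32851 windows. The NF-kB letters were in 5 (13.9%), those of Ccl20, Ccl9, Ccr3, Cxcl1 and Cxcl2, and in 1.41% of all windows. These matches describe the letters only.

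Most of the family gave low signals. The level of a probe set was taken as its log2 intensity minus the log2 median of its array, averaged over the 15 arrays. By this measure 41 of the 59 members (69.5%) lay below the array median, 37 of them on all 15 arrays. For 30 of the 45 genes, all probe sets lay below. The share below was 13 of 15 for CC receptors, 4 of 6 for CXC receptors, 14 of 21 for CC ligands and 10 of 17 for CXC ligands. It was nearly the same in each group, with 42 members below in young, 43 in old and 43 in old CR mice. Low signals were also measured less precisely, with a median standard error of a log2 difference of 0.41 among the 41 members below the median and 0.19 among the other 18. Probe sets bind with different strengths, so that the levels say where a member lies on the array and do not rank transcripts against each other.

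**Figure D1:**
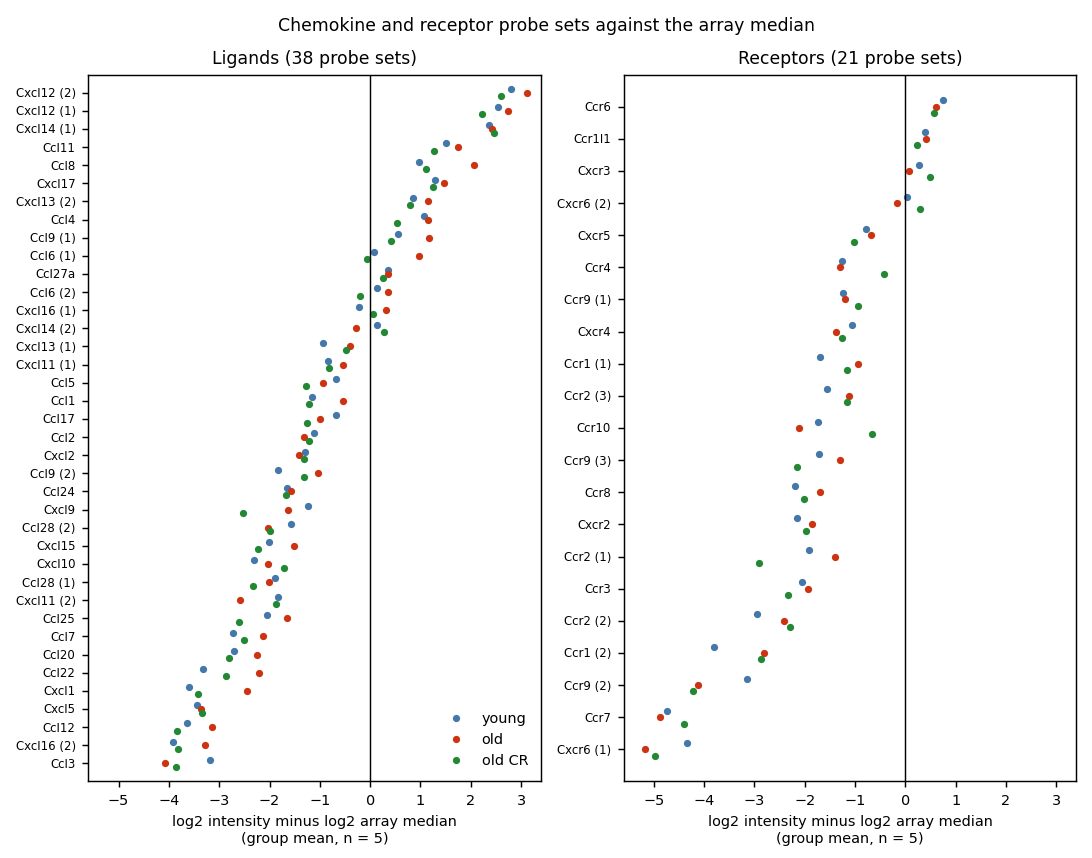
Level of each of the 59 chemokine and receptor probe sets, as log2 intensity minus the log2 median of its array, with 1 point for the mean of each group (5 arrays). The vertical line is the array median, and 41 of the 59 probe sets have a mean over all 15 arrays to the left of it. Where a gene has several probe sets they are numbered in the order of their identifiers.

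The 18 members that were not below the array median belonged to 15 genes. Among CC ligands these were Ccl11 (eotaxin, which attracts eosinophils), Ccl4 (which attracts monocytes and T cells), Ccl6, Ccl8, Ccl9 and Ccl27a (which draws T cells to skin). Among CXC ligands they were both probe sets of Cxcl12, both of Cxcl14, and 1 each of Cxcl13, Cxcl16 and Cxcl17. Of these, Cxcl12 (which retains stem cells and lymphocytes in their niches) stood 2.84 and 2.50 above the median on the log2 scale. The receptors were Ccr6, Ccr1l1, Cxcr3 and Cxcr6. Several members were close to the line. Cxcl14 (1418457_at) lay 0.04 above it, Cxcl16 (1418718_at) and Cxcr6 (1425832_a_at) 0.05 each and Ccl6 (1420249_s_at) 0.09, and the nearest members on the other side were Cxcl13 (1417851_at) at -0.60 and Cxcl11 (1419697_at) at -0.73.

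Of the 13 probe sets of ligands for monocytes and eosinophils 6 were not below the median and 7 were. Ccl2, the main monocyte attractant, lay 1.22 below the array median (a level of -1.22) and was below it on all 15 arrays, as were Ccl3, Ccl5, Ccl7 and Ccl12. The neutrophil attractants Cxcl1, Cxcl2, Cxcl5 and Cxcl15 had levels of -3.15, -1.34, -3.38 and -1.92. The interferon-induced ligands Cxcl9, Cxcl10 and Cxcl11, which bind Cxcr3 on activated T cells, were below the median in the mean at all 4 of their probe sets. The same held for the ligands of lymphocytes and dendritic cells Ccl1, Ccl17, Ccl20, Ccl22, Ccl25 and Ccl28.

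Some ligands and their receptors lay on the same side of the median and others did not. Ccl2 and Ccr2, Ccl17 and Ccl22 with Ccr4, and Cxcl1, Cxcl2 and Cxcl5 with Cxcr2 were all below it. For other pairs the sides differed. The receptor of Cxcl12, Cxcr4, was below the median on all 15 arrays (level -1.24), whereas Ackr3, the scavenger receptor that also binds Cxcl12 and is no member by name, was at 1.13. Ccr1, the receptor of Ccl6 and Ccl9, was below on all 15 arrays at both probe sets, and so was Ccr8 (level -1.97), through which mouse Ccl8 signals. Ccr3, the receptor of Ccl11, and Cxcr5, the receptor of Cxcl13, were likewise below on all 15 arrays. Cxcr6, the receptor of the membrane-bound ligand Cxcl16, had 1 probe set near the median (level 0.05) and 1 far below it (level -4.83).

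The arrays themselves differed between the groups in a way that bears on all comparisons. Every array had the same trimmed mean of 500, and the medians were 209 to 244 in young, 201 to 224 in old and 213 to 230 in old CR mice. The log2 difference between the 3′ and 5′ control probe sets of Gapdh and Actb, which grows as RNA is degraded or copied incompletely, was -0.28 to 0.06 in young, 0.05 to 0.27 in old and -0.42 to -0.21 in old CR mice. Young replicate 3 (0.06) stood apart from the other young arrays and within the range of the old. Values without this array, and values from a fit with this difference as covariate, are therefore given beside Ccl8 and Ccr4, the members called in old CR against old mice. All 10 markers of skeletal muscle were above the array median, and all 8 measured markers of T cells were below it.

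The effect of age was examined by comparing old with young mice. None of the 59 members passed an adjusted p under 0.05 (limma, Benjamini-Hochberg over 22626 probe sets), against 0.265% of all probe sets called. At an unadjusted p under 0.05 there were 4 members, or 6.78%, where 15.5% of all probe sets passed. They were Ccl8, Ccl6 (1417266_at) and Ccl9 (1448898_at), which were higher in old mice, and Cxcl11 (1419698_at), which was lower. The means were higher in old mice for 34 members (43% of all probe sets had a higher mean) and lower for 25, and the median log2 difference was 0.11, beside -0.06 over all probe sets. That median was 0.02 without old replicate 1, 0.06 without young replicate 5, 0.16 without old replicate 2 and 0.0079 with the 3′ minus 5′ covariate.

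Ccl8 encodes a CC ligand that attracts monocytes, eosinophils and T cells. Its probe set (1419684_at) read 355, 576, 354, 399 and 590 in the young mice. It read 713, 850, 1106, 732 and 1052 in the old mice. Every old mouse lay above every young mouse. Ccl8 was the only member whose groups did not overlap in this comparison, where 3.61% of all probe sets did not. The means were 455 ± 119 (SD, n = 5) and 891 ± 181 (SD, n = 5), a 1.98-fold difference. The log2 difference was 0.98 (SE 0.19) with an adjusted p of 0.0538, just short of the threshold. Without young replicate 3 it was 0.90 with an adjusted p of 0.0215, where 1067 of all probe sets were called in place of 60. With the 3′ minus 5′ covariate it was 1.28 (SE 0.32), with an adjusted p of 0.452, in a fit where 0 of all probe sets were called. Ccl8 stands on the study's own list of transcripts that differ with age, as are Cxcl13 and both probe sets of Ccl6 (1 of them without a gene name there). That list was chosen on these samples, so that a place on it is not independent evidence.

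**Figure D2:**
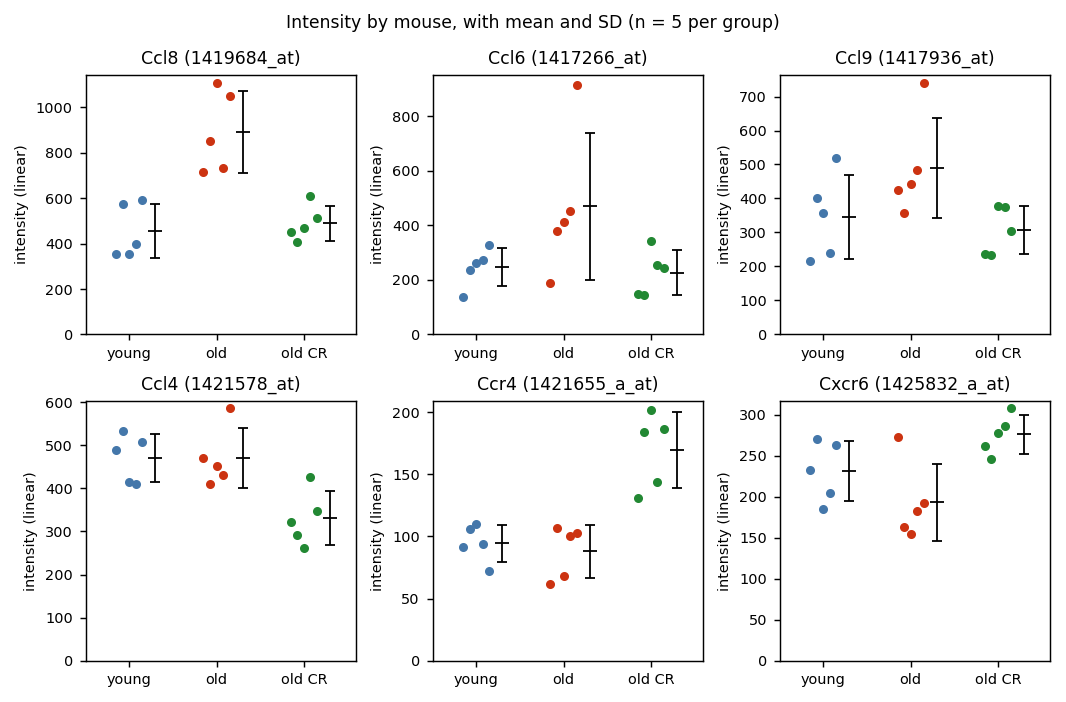
Linear intensity of selected chemokine and receptor probe sets in each mouse, with points for the 5 mice of each group and a bar at the group mean with the SD. All 5 old mice lie above the young and the old CR mice for Ccl8, and all 5 old CR mice lie above the other groups for Ccr4.

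Ccl6 and Ccl9 are neighboring CC ligands of the myeloid lineage. The probe set 1417266_at of Ccl6 read 138, 238, 260, 272 and 328 in young mice. It read 189, 379, 413, 453 and 915 in old mice, so that the groups overlapped and a single old mouse stood well above the rest. Its log2 difference was 0.80 (SE 0.37) with an adjusted p of 0.322. A second probe set of Ccl6 (1420249_s_at), of a type whose probes can be shared by related transcripts, gave 0.13 (SE 0.28). Ccl9 (1417936_at) read 215, 400, 357, 241 and 518 in young and 425, 358, 442, 483 and 738 in old mice. The groups overlapped here as well, and the log2 difference was 0.53 (SE 0.26, adjusted p 0.351). The dimmer probe set of Ccl9 (1448898_at), below the median on all 15 arrays, gave 0.71 (SE 0.29, adjusted p 0.252).

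The other members with the largest differences among those not below the median were also inside the spread. Cxcl14 (1418457_at), a homeostatic ligand made by epithelia and adipose tissue, differed by -0.51 (SE 0.30, adjusted p 0.432), while its other probe set (1418456_a_at) differed by -0.03. Cxcl16 (1418718_at) differed by 0.46 (SE 0.24, adjusted p 0.381), and this turned to -0.31 with the 3′ minus 5′ covariate. Cxcl13, the ligand that gathers B cells into follicles, has 2 probe sets here. Its dimmer probe set (1417851_at) differed by 0.45 (SE 0.41, adjusted p 0.625), with 436 in old replicate 5 and 89.7 to 192 in the other old mice. Without old replicate 5 it differed by 0.09. The other (1448859_at) differed by 0.21 (SE 0.19, adjusted p 0.62), and there too old replicate 5 was the highest of its group.

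The effect of CR at the same age was examined by comparing old CR with old mice. These comparisons share the old arrays, so that a high value in old mice enters both. Ccl8 fell and Ccr4 rose, and no other member passed the test. These 2 members are 3.39% of the 59, where 4.87% of all probe sets were called. At an unadjusted p under 0.05 there were 14 members (23.7%), 8 lower and 6 higher in old CR mice, where 21.9% of all probe sets passed. Ccl8 and Ccr4 were also the members whose groups did not overlap, beside 8.89% of all probe sets.

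Ccl8 read 451, 406, 469, 608 and 513 in the old CR mice, each below the lowest old mouse. The mean was 489 ± 76.3 (SD, n = 5), and the level in old mice was 1.81-fold higher. The log2 difference from old mice was -0.85 (SE 0.19) with an adjusted p of 0.0266. From young mice it was 0.13 (SE 0.19, adjusted p 0.847), and these groups overlapped. The call against old mice was lost when old replicate 2, 3 or 5, or old CR replicate 2, 3 or 5, was left out, with adjusted p of 0.0539, 0.0633, 0.0589, 0.05005, 0.0553 and 0.0554. Without young replicate 3 it stood, with an adjusted p of 0.0175, where 1657 of all probe sets were called in place of 1102. It was also lost with the 3′ minus 5′ covariate, where the log2 difference was -1.26 (SE 0.40) with an adjusted p of 0.586. That fit called 0 of all probe sets.

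Ccr4 is a receptor of regulatory and type 2 helper T cells that binds Ccl17 and Ccl22. Its probe set (1421655_a_at) was below the array median on all 15 arrays, at a level of -0.99. It read 91.2, 106, 110, 94.1 and 72.0 in young mice and 61.7, 107, 68.5, 100.3 and 103 in old mice. In old CR mice it read 131, 184, 202, 144 and 186. Every old CR mouse was above all young and all old mice. The means were 94.6 ± 14.8 in young, 88.1 ± 21.3 in old and 169 ± 30.6 in old CR mice (SD, n = 5 each). The log2 difference from old mice was 0.96 (SE 0.19), a 1.95-fold difference, with an adjusted p of 0.0167. Without young replicate 3 the adjusted p was 0.0111, and no single array removed the call. With the 3′ minus 5′ covariate the log2 difference was 0.76 with an adjusted p of 0.81, and 0 of all probe sets were called. The ligands of Ccr4 gave no such pattern, with log2 differences from old mice of -0.19 (SE 0.31) for Ccl17 and -0.56 (SE 0.63) for Ccl22.

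**Figure D3:**
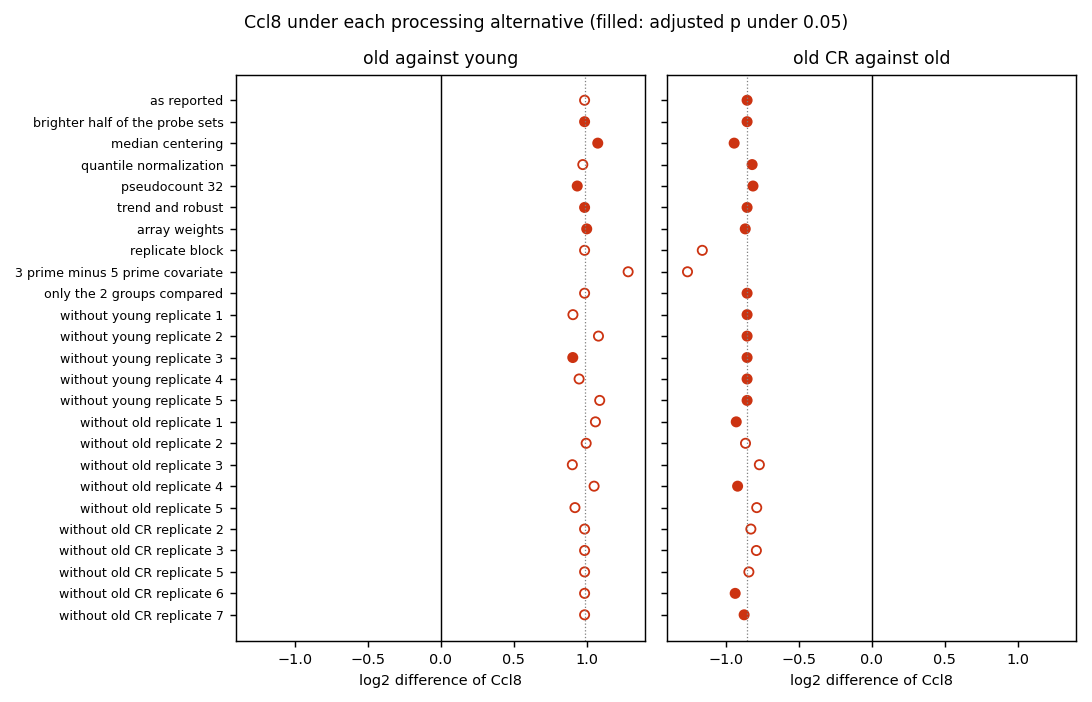
Log2 difference of Ccl8 (1419684_at) as reported and under each alternative, for old against young and old CR against old mice, with filled points where the adjusted p was under 0.05. The sign is the same throughout, whereas the call comes and goes with the alternative.

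Among CC ligands, the means of 18 of 21 probe sets were lower in old CR than in old mice, with a median log2 difference of -0.40, beside 0.06 over all 22626 probe sets, of which 44.7% had a lower mean. Of the 21, Ccl8 alone passed the test. In the ligands of monocytes and eosinophils, 11 of 13 were lower, and in those of lymphocytes and dendritic cells 7 of 8. With the 3′ minus 5′ covariate 13 of the 21 were lower. For the CXC ligands 10 of 17 means were lower, with a median of -0.18. The CC receptors gave a median of 0.02, which turned to -0.07 when arrays were centered on their medians, and the CXC receptors gave 0.25 over 6 probe sets, which became -0.00047 after quantile normalization, with 3 higher and 3 lower. Over the whole family the means were lower for 36 and higher for 23 members, for 43 and 16 after quantile normalization, and for 30 and 29 with the 3′ minus 5′ covariate.

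**Figure D4:**
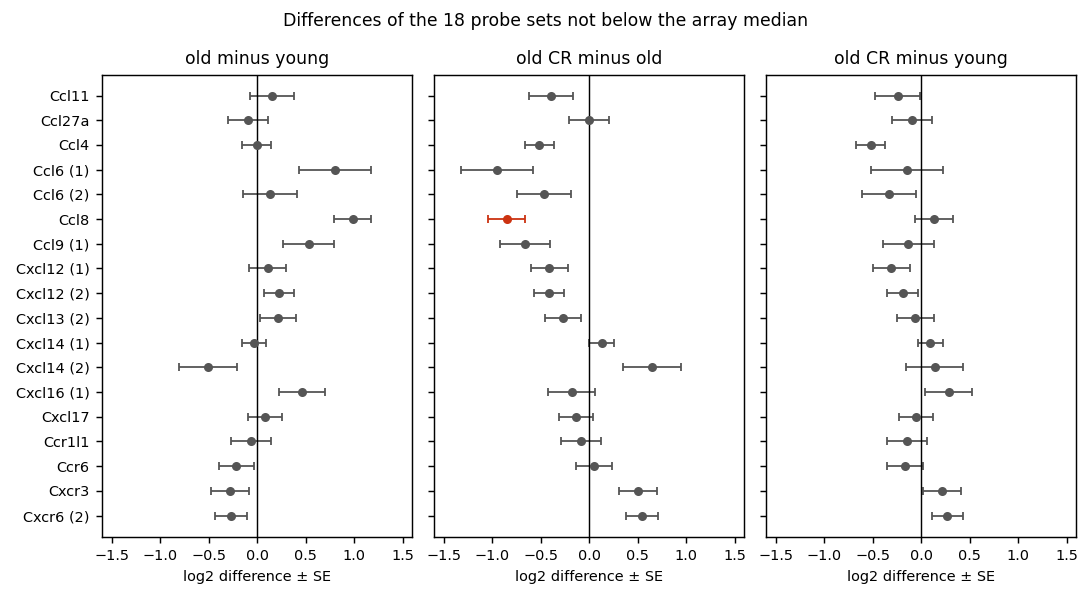
Fitted log2 difference with its standard error for the 18 members not below the array median, arranged by class, in the comparisons between groups, with red points for an adjusted p under 0.05. In old CR against old mice the 7 CC ligand probe sets shown all lie below 0, and Ccl8 is the red point.

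Several members came near the threshold in this comparison. Ccl4 (1421578_at) read 470, 410, 451, 432 and 587 in old mice and 323, 292, 262, 427 and 347 in old CR mice, so that a single old CR value lay within the old range. Its log2 difference was -0.52 (SE 0.15, adjusted p 0.0644). Cxcr6 (1425832_a_at), a receptor of memory T cells and natural killer T cells, read 273, 163, 154, 183 and 193 in old mice and 262, 246, 278, 286 and 309 in old CR mice. Old replicate 1 alone lay among the old CR values. The log2 difference was 0.54 (SE 0.16, adjusted p 0.0701). When an array was left out the adjusted p ran from 0.0304 (without old replicate 1, log2 difference 0.68) to 0.153. Under the other alternatives it ran from 0.0262 to 0.859. With the 3′ minus 5′ covariate 0 of all probe sets were called, so that neither Ccl4 nor Cxcr6 passed. The second probe set of Cxcr6 (1422812_at), at the bottom of the array, differed by 0.29 (SE 0.75).

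Ccl6 (1417266_at) read 149, 143, 341, 257 and 243 in old CR mice, overlapping the old mice, and differed by -0.95 (SE 0.37, adjusted p 0.153). Its other probe set differed by -0.47 (SE 0.28). Ccl9 (1417936_at) read 238, 235, 378, 376 and 304 and differed by -0.66 (SE 0.26, adjusted p 0.154). Both genes thus had lower means at all of their probe sets without passing the test. Cxcl14 (1418457_at) differed by 0.65 (SE 0.30, adjusted p 0.219) and Cxcl13 (1417851_at) by 0.01 (SE 0.41). The probe sets of Cxcl12 gave differences of -0.42 (SE 0.16, adjusted p 0.135) and -0.41 (SE 0.19, adjusted p 0.227).

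In old CR against young mice no member was called, beside 0.0884% of all probe sets. At an unadjusted p under 0.05 there were 3 members (5.08%), where 12.1% of all probe sets passed. These were Ccr4, at 0.84 (SE 0.19, adjusted p 0.115), Ccl4, at -0.52 (SE 0.15, adjusted p 0.183), and Cxcl9, at -1.29 (SE 0.42, adjusted p 0.237). The 5 young mice ranged from 37.8 to 235 for Cxcl9, which was below the array median on 14 of 15 arrays. Ccr4 was the only member whose groups did not overlap, beside 3.57% of all probe sets. Ccl4 read 489, 532, 415, 411 and 508 in young mice, a range that held the values of most old mice, and its log2 difference with age was -0.01. The other members not below the median with the largest differences were Cxcl12 (1417574_at) at -0.31, Ccl6 (1420249_s_at) at -0.34, Cxcl16 (1418718_at) at 0.28 and Cxcr6 (1425832_a_at) at 0.27, and the lowest adjusted p among them was 0.554.

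Where a gene had several probe sets, they did not always give the same sign. Of 12 such genes, 10 had the same sign at all probe sets in old against young, 6 in old CR against old and 6 in old CR against young. Ccr2, the receptor by which monocytes leave the marrow, had 3 probe sets, all below the array median on all 15 arrays. They gave differences of -1.43, 0.20 and 0.04 between old CR and old mice, with standard errors of 0.64, 0.55 and 0.40. Ccr9, which guides lymphocytes to the gut, also had 3 probe sets, all below the array median on all 15 arrays. Between old CR and old mice they gave -0.76 (1427419_x_at, SE 0.24, adjusted p 0.0765), 0.36 (SE 0.29) and 0.00 (SE 0.79). Ccr9 was called in this comparison with median centering and with quantile normalization. Ccl6, Cxcl12, Cxcl14 and Cxcl16 had the same sign at both probe sets in every comparison. The single probe set of Ccl27a (1434962_x_at) has probes that can bind related sequences, and near-identical copies of this gene exist, so that its value cannot be assigned to a single copy.

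Chemokines and receptors outside the naming rule, 14 genes that include Pf4, Cx3cl1, Cx3cr1 and the atypical receptors, had no call in any comparison. The genes of smallest adjusted p were Cmklr1, a receptor of chemerin, with age (-0.98, adjusted p 0.22), and Ackr3 between old CR and old mice (0.29, adjusted p 0.266). Of 23 measured genes of receptor signaling, none was called with age and 2 were called in old CR against old mice, where 4.87% of all probe sets were. Gnai1, an inhibitory G protein subunit, was lower by a log2 difference of -0.94 (adjusted p 0.0392), and Gng2, a gamma subunit, was higher by 0.74 (adjusted p 0.0322). The signal of Gng2 was low, at a level of -3.09, with means of 20.4 in old and 33.0 in old CR mice. With the 3′ minus 5′ covariate 0 of all probe sets were called in this comparison, so that the calls of Gnai1, Gng2, Vwf and Myh1 were lost. Among 17 inflammatory cytokines and NF-kB targets none was called. The genes of smallest adjusted p were Selp, the P-selectin of platelets and endothelium, at -1.63 (adjusted p 0.109) and the cytokine Il6 at 0.47 (adjusted p 0.124), both between old CR and old mice.

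Markers of other cell types were read on the same arrays. The summed intensity of 11 macrophage markers was 4282 to 9413 in young, 6539 to 9119 in old and 4916 to 6728 in old CR mice. Of these markers 5 lay below the array median and none was called. With age 7 means were higher and 4 lower, and in old CR against old mice 4 were higher and 7 lower. Csf1r, which defines the lineage, had log2 differences of 0.42 with age (adjusted p 0.24) and -0.58 between old CR and old mice (adjusted p 0.0589), Adgre1 had 0.00 and -0.18, and Cd68 had -0.11 and 0.29. The sum over 7 markers of B and plasma cells was 2065 to 4248 in young, 2732 to 6882 in old and 1228 to 4154 in old CR mice. The largest part of it was Ighm, with means of 1656 in young, 3691 in old and 1552 in old CR mice. Of the 7 markers, 3 means were higher and 4 lower with age, and 4 higher and 3 lower in old CR than in old mice, with none called. The gene of smallest adjusted p was Jchain, the joining chain of polymeric antibodies, at 1.84 (adjusted p 0.0943) and -1.67 (adjusted p 0.0531). The 4 measured markers of adipocytes summed to 6365 to 12780 in young, 10504 to 16440 in old and 7493 to 11494 in old CR mice, with none called. With age all 4 means were higher, and in old CR against old mice 3 were lower and 1, Fabp4, was higher. Adipoq had the smallest adjusted p, at -1.19 (adjusted p 0.0693) in old CR against old mice. Among 8 markers of endothelium 5 means were lower and 3 higher in old CR than in old mice, with Vwf called lower (-1.02, adjusted p 0.018) and Pecam1 at 0.79 (adjusted p 0.0529). Among 7 markers of fibroblasts 6 means were lower and 1 higher in old CR than in young mice. Col1a2, a collagen chain, was called lower (-1.49, adjusted p 0.0472), and Lum was the higher one (0.58, adjusted p 0.147). With age Col1a2 differed by -1.24 (adjusted p 0.0556). Among 7 markers of neutrophils 2 means were higher and 5 lower in old CR than in old mice, with none called. The nearest was Ltf, which was higher in old CR than in old mice (0.77, adjusted p 0.088). The markers of lymph node, of which 5 of 7 were below the median, had no call. Among 8 markers of T cells 1 mean was higher and 7 were lower with age, with none called. In old CR against old mice 3 of the T cell means were higher and 5 lower, again with none called. The markers of skeletal muscle had higher means in old CR than in old mice for 10 of 10, with Myh1 called (0.52, adjusted p 0.0297). The part of these cell types in the chemokine values was not tested.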

How the data were processed

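Gastrocnemius RNA of 15 mice was copied to cDNA, from which biotin-labeled cRNA was made and hybridized to MOE430A arrays. The authors averaged repeated scans. The deposited values are linear intensities, scaled array by array by the authors to a trimmed mean of 500. The submitters' notes name MAS5 and RMA, and the versions are not given in the sources used here. The genome build and annotation behind the probe sets are likewise not given, so no gene coordinates other than the promoter windows are printed. The study's own statistics were made from RMA values, which these are not, and its detection calls were not used here.

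Intensities were converted to log2 with no pseudocount, controls (64 probe sets) were excluded, and the remaining 22626 entered 1 limma fit of the 3 groups (version 3.58.1, R 4.3.3, eBayes without a trend, 2.17 prior degrees of freedom). P-values were adjusted by Benjamini-Hochberg over all probe sets, and members were called at an adjusted p under 0.05. Levels, counts and motif searches used Python 3.11.15 with pandas 2.3.3, and figures used Matplotlib 3.10.9. The fit was tested on simulated data with known changes. The number of arrays limits the precision. Mice are separate animals by their labels.

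Members named with full values were those called and the 5 with the largest difference per comparison among members not below the array median, together with the study's listed members that it gives by name (Ccl6, Ccl8, Cxcl13). Cxcl11, Cxcl9, Ccr2, Ccr9, Ccl17 and Ccl22, the second probe sets, and the differences given for Ccl4 and Cxcl12 between old CR and old mice were chosen after their values were seen. The 12 related lists had 123 of 135 genes on the array, taken at the brightest probe set of each. From them the genes called or those of smallest adjusted p were named, but none for T cells or lymph node. Adgre1, Csf1r, Cd68, Pecam1, Fabp4, Lum and Ighm were added after their values were seen. The members and lists were chosen with earlier results of these data known. The alternatives are listed in the closing section.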

Additional observations from a re-analysis of the deposited data

Results flagged for a closer look

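Among the 60 group values tested (20 probe sets in 3 groups), 4 had an array far from the other arrays of its group by Dixon's gap, where chance alone gives about 5% of groups. For Ccl11, young replicate 2 read 493, below the other young mice at 654 to 710. For Ccl27a, young replicate 2 read 377 with the others at 252 to 281, and old CR replicate 5 read 155 with the others at 277 to 350. For Cxcl13 (1448859_at), old replicate 5 read 696 with the others at 397 to 442.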

How the results depend on the processing

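The 24 alternatives were the 11313 brighter probe sets, median centering, quantile normalization, a pseudocount of 32, a fit without the uncompared group, robust eBayes with a trend, array weights, the replicate block, the 3′ minus 5′ covariate and leaving out each of 15 arrays, with an adjusted p under 0.10 besides. In old against young mice the 0 members called became 1, Ccl8, among the brighter probe sets, with median centering, the pseudocount, the trend, array weights or the looser threshold, and 0 to 1 when an array was left out (1 without young replicate 3). Over all probe sets the 60 calls with age became 572 among the brighter ones, 44 with median centering and 196 with the pseudocount. They became 418 with the trend, 770 with array weights and 1067 without young replicate 3. In old CR against old mice the 2 members called became 4 with median centering (Ccl4 and Ccr9 added), 5 at the looser threshold (also Cxcr6), 0 with the covariate and 0 with the replicate block, and 1 to 3 when an array was left out. Over all probe sets the 1102 calls in this comparison became 1107 with median centering, 0 with the covariate and 4 with the replicate block. When an array was left out they ran from 462 (without old replicate 2) to 1657 (without young replicate 3). In old CR against young mice the count of members called was 0 throughout. The median member difference between old CR and old mice, -0.18, became -0.0093 with the covariate, -0.09 with the pseudocount, -0.064 without old replicate 1, and -0.077 and -0.074 without old CR replicates 2 and 5. The covariate follows the groups, so that the median standard error of members grew 1.70-fold with age and 2.12-fold with CR, and the array difference and the group cannot be told apart well. Cxcl16 (1418718_at) with age turned to -0.31 with the covariate. Cxcl13 (1417851_at) between old CR and old mice turned to -0.079 with median centering, -0.094 with quantile normalization, -0.011 with the pseudocount and -0.22 with the covariate, and ran from -0.20 to 0.37 when an array was left out. Other causes were not tested. The count below the array median ran from 37 to 43 under other rules. Replicate numbers did not pair the samples (11 same-numbered pairs, correlations -0.28 to 0.09). With the replicate block Ccl8 was at -1.16 (adjusted p 0.148) and Ccr4 at 0.93 (adjusted p 0.21) in old CR against old mice.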
